A study of Mus musculus with 6 samples.

Results

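The genes described here are 53 genes of mitosis and of the passage from G2 into mitosis, taken by symbol from a list that covers the cyclin B kinase and its regulators, the spindle checkpoint, kinetochores, spindle motors, cytokinesis and chromosome condensation. All 53 symbols occurred once in the deposited table of 22564 genes. All 53 reached a mean of 1 FPKM (fragments scaled to transcript length and library size) over the 6 libraries and were among the 11416 genes tested. The labels name the cells as EOMA, an endothelioma line of the mouse that serves as a vascular tumour model, grown at normal oxygen with serum. Exposure lasted 24 h, to the solvent DMSO in 3 libraries and to 2 µM DHTS in 3, where DHTS is 15,16-dihydrotanshinone I, a tanshinone of the root of Salvia miltiorrhiza. The labels name no other difference between the groups, and the series title names infantile hemangioma and hypoxia-inducible factor 1 as its subjects. Whether replicate libraries are separate cultures is not stated in the labels, so a p-value here measures how these 6 libraries spread, which may be technical only.

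Libraries held 9343155 to 12255243 estimated fragments. The defining endothelial genes Cdh5, Kdr, Tek, Tie1, Emcn, Erg, Fli1, Icam2 and Clec14a were listed at 0 in each DMSO library, and the markers with a mean of at least 1 FPKM were 5 of 16 endothelial, 6 of 10 epithelial, 1 of 6 immune and 0 of 6 fibroblast markers. With DHTS Erg was at 0.348 to 0.671 FPKM and Tek at 0.0255 to 0.0856 FPKM. The summed level of the endothelial list was 149.5 to 153 FPKM with DMSO and 191 to 217 FPKM with DHTS. Within it Cd34 was at 74.4 to 80.1 and at 97.2 to 105 FPKM, and Ets1, Eng and Esam rose as well. Egfl7, at 29.2 ± 2.65 and 24.4 ± 8.61 FPKM, had a lower mean with DHTS and did not pass. The epithelial list summed to 226 to 233 and 268 to 277 FPKM, but its members diverged. Krt18 (136 to 197 FPKM on average) and Krt8 (1.35 to 3.79) rose, while Epcam (24.2 to 17.3) and Elf3 (34.9 to 19.6) fell. Of the immune list Cd14 alone exceeded a mean of 1 FPKM, and it fell from 34.9 ± 3.13 to 23.8 ± 1.96 FPKM. The part of these shifts in the results below was not tested. Whether the cells match the labelled line was not tested either, so the results below are not shown to be those of endothelial cells.

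Entry into mitosis is driven by cyclin-dependent kinase 1 bound to cyclin B. The transcripts of this programme build up late in the cell cycle under the transcription factors B-MYB and FOXM1, and are repressed in resting or arrested cells by the DREAM complex, which binds a promoter element called the cell cycle genes homology region (CHR). Exit from mitosis follows once the spindle checkpoint is satisfied and the anaphase-promoting complex destroys cyclin B and securin. Transcript levels of this set are therefore widely read as a measure of how many cells are cycling, and in bulk RNA a smaller share of cells in G2 or mitosis and less RNA per such cell cannot be told apart.

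Changes in the set went in both directions and, apart from Gtse1 and Spc25, stayed under 2-fold. Of the 53 genes, 18 were higher with DHTS, 10 were lower and 25 did not pass (limma on log2(FPKM + 1), adjusted p under 0.05). Over all 11416 tested genes 28.2% were higher and 21.9% lower, 50.1% in all, and the corresponding shares of the set were 34.0%, 18.9% and 52.8%, near this background. Only Gtse1 and Spc25 were called at 2-fold or more, both upward. They are 3.77% of the set, while 7.58% of tested genes passed that fold in either direction, 5.83% upward and 1.75% downward. The median log2 fold change of the set was 0.10 (quartiles −0.12 and 0.26), and that of all tested genes was 0.03 (quartiles −0.21 and 0.31). Median-ratio scaling put these medians at 0.05 and −0.01, and quantile normalization at 0.07 and −0.07. The median absolute log2 fold change was 0.15 in the set and 0.25 over all tested genes. The groups did not overlap in 38 genes (71.7%, against 59.8% of tested genes). In 26 genes the 3 DHTS libraries lay above the 3 DMSO libraries (49.1% of the set, where 33.0% of tested genes did so), and in 12 they lay below (22.6%, against 26.8%). Under median-ratio scaling 16 genes were higher and 12 lower, where 25.3% and 25.7% of all tested genes were. Under quantile normalization these counts were 15 and 12, where 22.3% and 29.9% of all tested genes were. Fold changes here and in what follows are on the log2(FPKM + 1) scale, which understates the change of low genes.

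**Figure D1:**
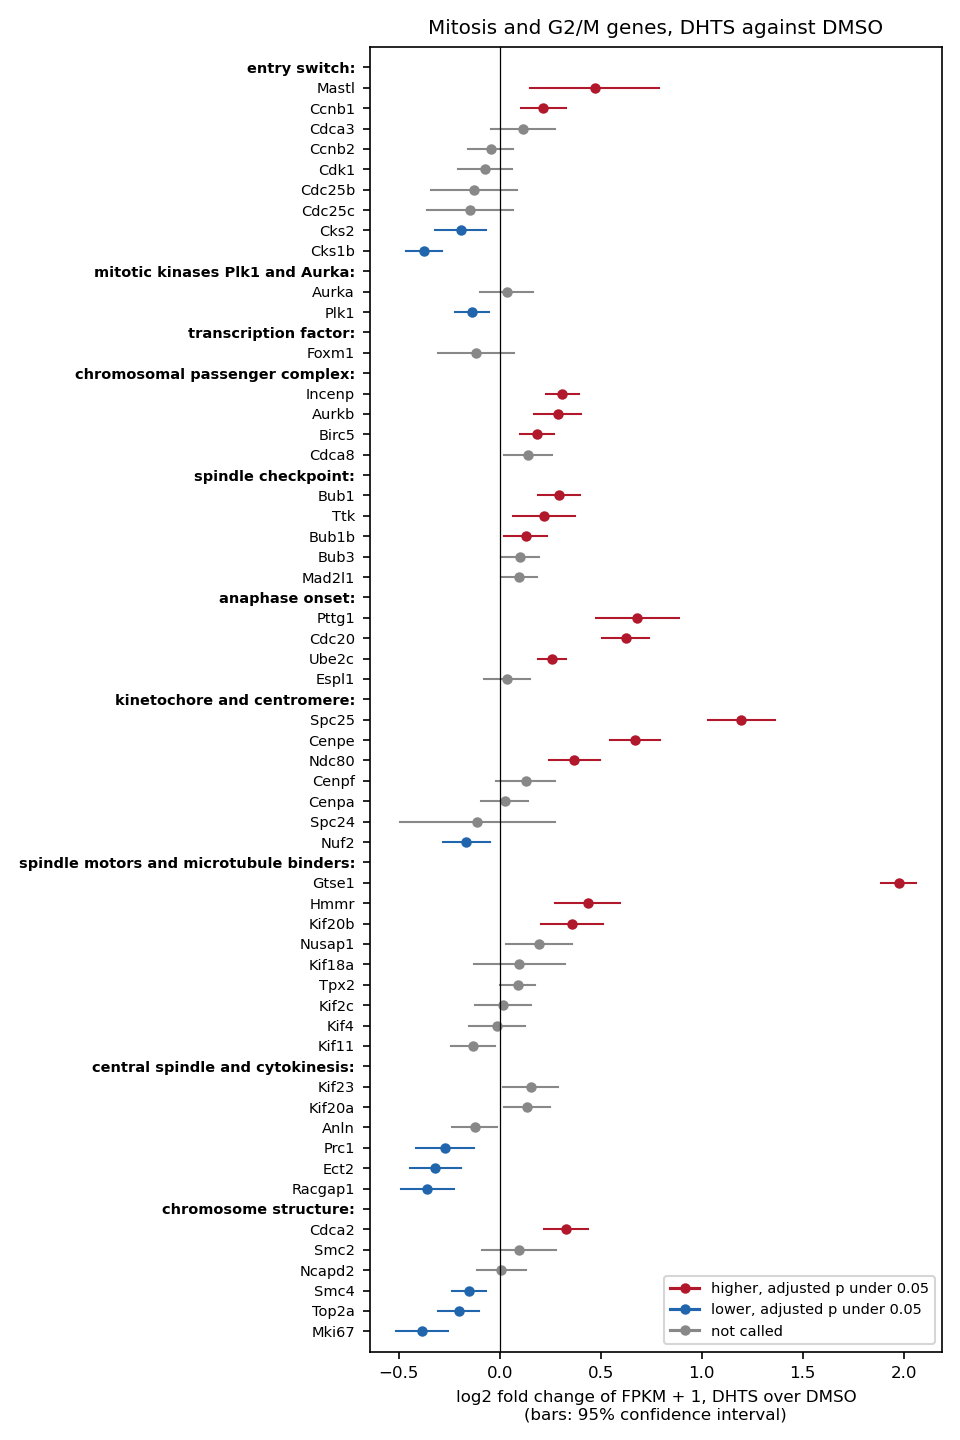
Log2 fold change of FPKM + 1, DHTS over DMSO (horizontal axis), of the 53 mitosis and G2/M genes grouped by role (vertical axis), with points for the limma estimate and bars for its 95% confidence interval, coloured by call. Gtse1 at 1.97 and Spc25 at 1.20 stand apart, and the lowest value is that of Mki67 at −0.38.

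Summed over the 53 genes, the level was 3969, 3921 and 3926 FPKM in the DMSO libraries and 4192, 4217 and 4132 FPKM in the DHTS libraries. The groups did not overlap. Without Gtse1 the sum was 3907 ± 25.8 FPKM with DMSO and 4051 ± 42.4 FPKM with DHTS, with SDs of 3 libraries after ± throughout. These sums use FPKM as deposited. Median-ratio scaling factors were 0.984 to 0.992 in the DMSO libraries and 1.015 to 1.025 in the DHTS libraries. Dividing by them narrows the gap between the groups. Without Gtse1, DHTS library 3 stood at 4003 FPKM (factor 1.025) and DMSO library 1 at 3936 FPKM (factor 0.991). Division by the factors reverses the order of these libraries, so without Gtse1 the groups are not apart after scaling. Sums after scaling are not given. With Gtse1 included, the genes took 0.835% ± 0.00680 of all estimated fragments with DMSO and 0.871% ± 0.00385 with DHTS. Gtse1 alone ran from 809 to 3825 estimated fragments per library. Within a group the coefficient of variation of a gene had a median of 4.08% (DMSO) and 3.55% (DHTS), and was highest for Mastl (19.2%) in DMSO and Spc24 (20.6%) in DHTS.

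**Figure D2:**
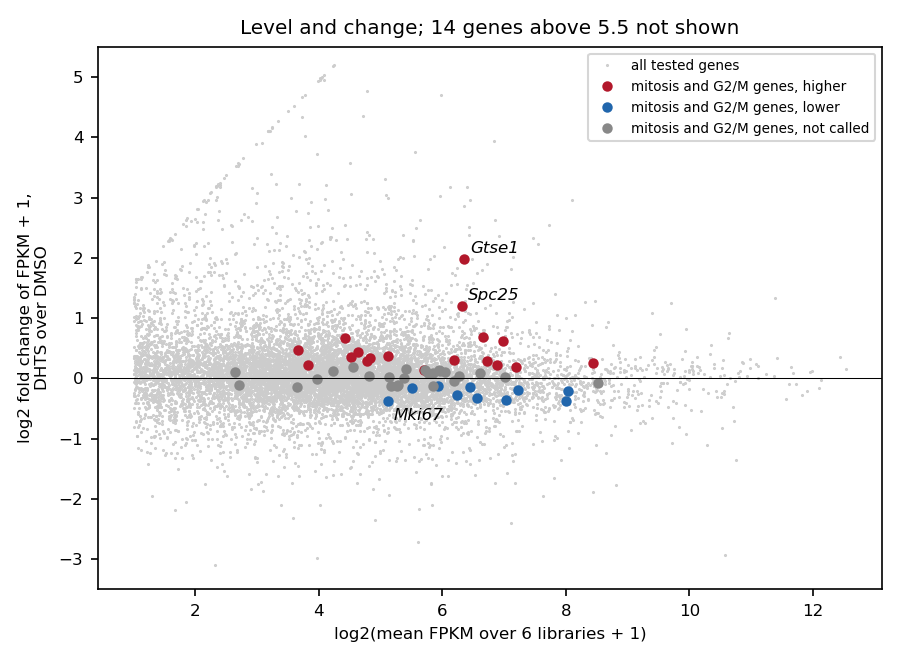
Log2 fold change of FPKM + 1, DHTS over DMSO, against log2(mean FPKM over 6 libraries + 1) for the 11416 tested genes (small grey points, with 14 above the axis limit of 5.5 not drawn) and the 53 mitosis and G2/M genes (large points, coloured by call). Gtse1 at 1.97 and Spc25 at 1.20 lie above the rest of the set.

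Promoters are shown for the 2 genes that rose most (Gtse1, Spc25), for Cdc20 and Ccnb1, whose products drive exit from and entry into mitosis, and for the 2 genes that fell most (Mki67, Cks1b), since regulation of this programme is known to run through 2 short elements. These are the CHR core TTTGAA and the CCAAT box CCAAT, which is bound by the factor NF-Y, and both were searched on both strands. Each sequence is the RefSeq promoter of build GRCm38.p6, from 250 bases before to 50 bases after the first listed start, read 5′ to 3′ on the strand of the gene, and capitals mark matches to either element. The windows are chr15:85859457-85859756 (plus strand) for Gtse1, chr2:69206164-69206463 (minus) for Spc25, chr4:118437294-118437593 (minus) for Cdc20, chr13:100786437-100786736 (minus) for Ccnb1, chr7:135716330-135716629 (minus) for Mki67 and chr3:89418242-89418541 (minus) for Cks1b.
Gtse1: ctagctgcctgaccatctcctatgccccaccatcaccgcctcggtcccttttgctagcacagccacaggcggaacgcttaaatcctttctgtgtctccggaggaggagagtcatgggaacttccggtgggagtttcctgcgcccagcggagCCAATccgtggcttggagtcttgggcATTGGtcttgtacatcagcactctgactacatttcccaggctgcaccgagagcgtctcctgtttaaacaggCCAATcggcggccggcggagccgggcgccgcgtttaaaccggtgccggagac
Spc25: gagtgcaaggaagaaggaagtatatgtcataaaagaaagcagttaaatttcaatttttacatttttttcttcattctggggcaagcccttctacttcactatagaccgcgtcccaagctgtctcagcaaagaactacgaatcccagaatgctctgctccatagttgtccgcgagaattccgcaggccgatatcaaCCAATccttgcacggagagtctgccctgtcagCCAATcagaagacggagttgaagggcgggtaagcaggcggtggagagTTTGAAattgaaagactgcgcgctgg
Cdc20: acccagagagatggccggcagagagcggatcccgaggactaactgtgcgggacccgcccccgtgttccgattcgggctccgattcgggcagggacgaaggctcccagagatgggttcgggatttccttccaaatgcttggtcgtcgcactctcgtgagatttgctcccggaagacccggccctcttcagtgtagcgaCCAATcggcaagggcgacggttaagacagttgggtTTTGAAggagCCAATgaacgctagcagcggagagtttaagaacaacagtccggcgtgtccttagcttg
Ccnb1: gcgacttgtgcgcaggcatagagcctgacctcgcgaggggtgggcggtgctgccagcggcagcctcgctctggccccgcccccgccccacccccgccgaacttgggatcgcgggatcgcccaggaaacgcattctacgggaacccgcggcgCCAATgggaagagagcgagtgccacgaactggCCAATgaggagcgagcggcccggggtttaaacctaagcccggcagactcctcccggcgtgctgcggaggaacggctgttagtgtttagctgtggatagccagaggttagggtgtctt
Mki67: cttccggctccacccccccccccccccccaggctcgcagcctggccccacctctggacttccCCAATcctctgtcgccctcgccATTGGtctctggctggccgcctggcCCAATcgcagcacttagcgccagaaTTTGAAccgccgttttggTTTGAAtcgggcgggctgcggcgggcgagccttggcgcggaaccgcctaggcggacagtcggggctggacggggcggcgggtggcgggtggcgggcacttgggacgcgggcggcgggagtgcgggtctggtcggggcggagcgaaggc
Cks1b: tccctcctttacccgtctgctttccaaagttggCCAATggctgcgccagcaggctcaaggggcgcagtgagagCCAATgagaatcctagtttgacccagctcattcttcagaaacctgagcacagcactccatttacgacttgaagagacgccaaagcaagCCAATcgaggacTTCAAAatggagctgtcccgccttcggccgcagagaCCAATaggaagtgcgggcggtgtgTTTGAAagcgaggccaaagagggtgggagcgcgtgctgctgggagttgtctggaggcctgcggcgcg
Spc25 and Cdc20 hold 1 TTTGAA each, Mki67 and Cks1b hold 2, and no TTTGAA was found in these windows of Gtse1 and Ccnb1. Variants of the CHR core were not searched, so a promoter without TTTGAA, here or below, is not shown to lack a CHR. The number of CCAAT boxes was 3 in Gtse1 and Mki67, 2 in Spc25, Cdc20 and Ccnb1, and 4 in Cks1b.

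The table of promoters held 44 of the 53 genes, of which 4 have more than 1 listed start. A TTTGAA was present in 31 of the 44 promoters (70.5%), in 11.2% of the 8528 promoters of tested genes and in 18.1% of all 27025 promoters. A CCAAT was present in 34 (77.3%), against 39.4% of tested genes and 37.9% of all promoters, and both elements in 27 (61.4%), against 4.88% of tested genes. In 1 promoter the matches of the 2 elements share bases. Matches of TTTGAA that begin within 50 bases of the start were present in 63.6% of the set and 2.77% of tested genes. By call, TTTGAA was present in 8 of 15 promoters of genes that rose, 7 of 9 that fell and 16 of 20 that did not pass. The median log2 fold change was 0.03 in the 31 genes with a TTTGAA and 0.20 in the 13 without, and both groups reached above 1. A half-site of the p53 consensus was present in 5 of the 44 promoters (11.4%) and in 6.59% of tested genes. The 5 were Spc25, Bub1b and Birc5, which rose (3 of 15), and Smc2 and Kif23, which did not pass (2 of 20), with 0 of 9 among genes that fell. These counts are too small to compare the calls, and the difference by call was not tested. The Gtse1 window held 0 half-sites. A full site was present in 0 of 44 and in only 2 of the 8528 promoters of tested genes (0.0235%). At that share 0 of 44 says nothing about these genes. These matches are letters in a window and not measured binding.

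**Figure D3:**
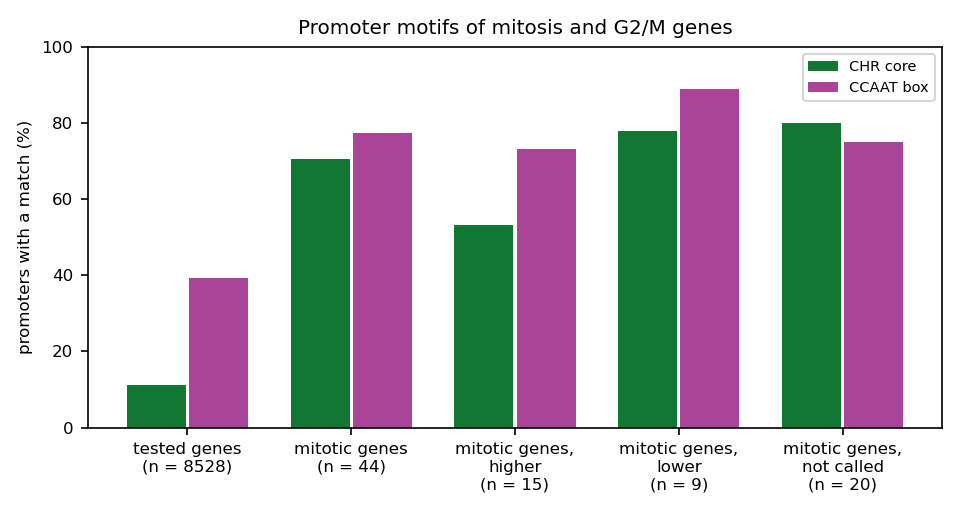
Share of promoters (vertical axis, percent) that hold the CHR core, searched as TTTGAA only, or the CCAAT box. Bars are for tested genes and for mitosis and G2/M genes in all and by call, with n under each pair. TTTGAA is present in 11.2% of tested genes and 70.5% of the mitotic genes.

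Counts by role, here and below, stand against 28.2% higher and 21.9% lower among all tested genes. Each role holds 1 to 9 genes, and no role was tested as a group. Of 9 genes of the kinase switch of mitotic entry 2 were higher, 2 lower and 5 did not pass. Cdk1, the kinase itself, stood at 399, 356 and 372 FPKM after DMSO and 381, 351 and 339 FPKM after DHTS. The groups overlap and the difference did not pass (log2 fold change −0.07, 95% interval −0.21 to 0.06, adjusted p = 0.326). In the second deposited block of values, scaled fragments, Cdk1 was lower (−0.09, adjusted p = 0.0369). Ccnb1, which encodes cyclin B1, stood at 113, 108 and 103 FPKM after DMSO and 121, 126 and 129 FPKM after DHTS. All DHTS libraries lay above the DMSO libraries, and Ccnb1 rose (0.22, SE 0.05, adjusted p = 0.0075). Its relative Ccnb2 stood at 73.1 ± 2.71 and 70.9 ± 2.78 FPKM (interval −0.15 to 0.07). Mastl encodes the Greatwall kinase, which restrains the phosphatase that opposes Cdk1. It was at 9.57, 7.85 and 11.6 FPKM after DMSO and 12.4, 13.9 and 14.7 FPKM after DHTS, so the groups did not overlap although the DMSO libraries spread widely. Mastl rose (0.47, SE 0.13, adjusted p = 0.0236), but the call was lost without DMSO replicate 1 (0.0594) or 2 (0.0505), without DHTS replicate 2 (0.0639) or 3 (0.0724) and under quantile normalization (0.0692).

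Both small Cks subunits, which help Cdk complexes recognise phosphorylated substrates, were lower. Cks1b stood at 302, 279 and 285 FPKM after DMSO and 224, 224 and 218 FPKM after DHTS. These groups lie far apart relative to their spread, and Cks1b fell by 0.38 (SE 0.04, adjusted p = 0.00017). Cks2 went from 158 ± 4.73 to 138 ± 9.11 FPKM (−0.19, adjusted p = 0.0212), has fractional fragment estimates, and lost its call without DMSO replicate 2 (0.0680) or 3 (0.0513). The phosphatase genes Cdc25b (−0.13, interval −0.34 to 0.08) and Cdc25c (−0.15, interval −0.36 to 0.07), which encode activators of Cdk1, did not pass. Cdc25b passed on the scaled fragments (−0.27, adjusted p = 0.0004) and Cdc25c under quantile normalization (−0.28, adjusted p = 0.0359). Cdca3, whose product promotes destruction of the Cdk1 inhibitor Wee1, stood at 59.1 ± 4.44 and 64.0 ± 3.24 FPKM (0.12, adjusted p = 0.187).

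Plk1 and Aurka, the kinases of centrosome maturation and spindle assembly, and the transcription factor gene Foxm1 stayed within 10% of their DMSO means. Plk1 was at 62.6, 63.2 and 63.2 FPKM after DMSO and 55.9, 57.9 and 57.8 FPKM after DHTS. All DHTS libraries lay below, and Plk1 fell by 0.14 (SE 0.04, adjusted p = 0.0174), but missed the threshold without DMSO replicate 2 (0.0504) or 3 (0.0515) or DHTS replicate 1 (0.0576). Aurka was at 78.9, 75.4 and 72.2 FPKM after DMSO and 72.9, 77.8 and 81.5 FPKM after DHTS, with overlap (interval −0.10 to 0.16, adjusted p = 0.633). Foxm1 was at 38.9, 40.1 and 38.7 FPKM after DMSO and 33.1, 34.7 and 40.9 FPKM after DHTS. DHTS replicate 3 lay above the DMSO libraries and the other DHTS libraries below them (−0.12, interval −0.30 to 0.07, adjusted p = 0.264). Without that library Foxm1 was lower (−0.20, adjusted p = 0.0203).

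**Figure D4:**
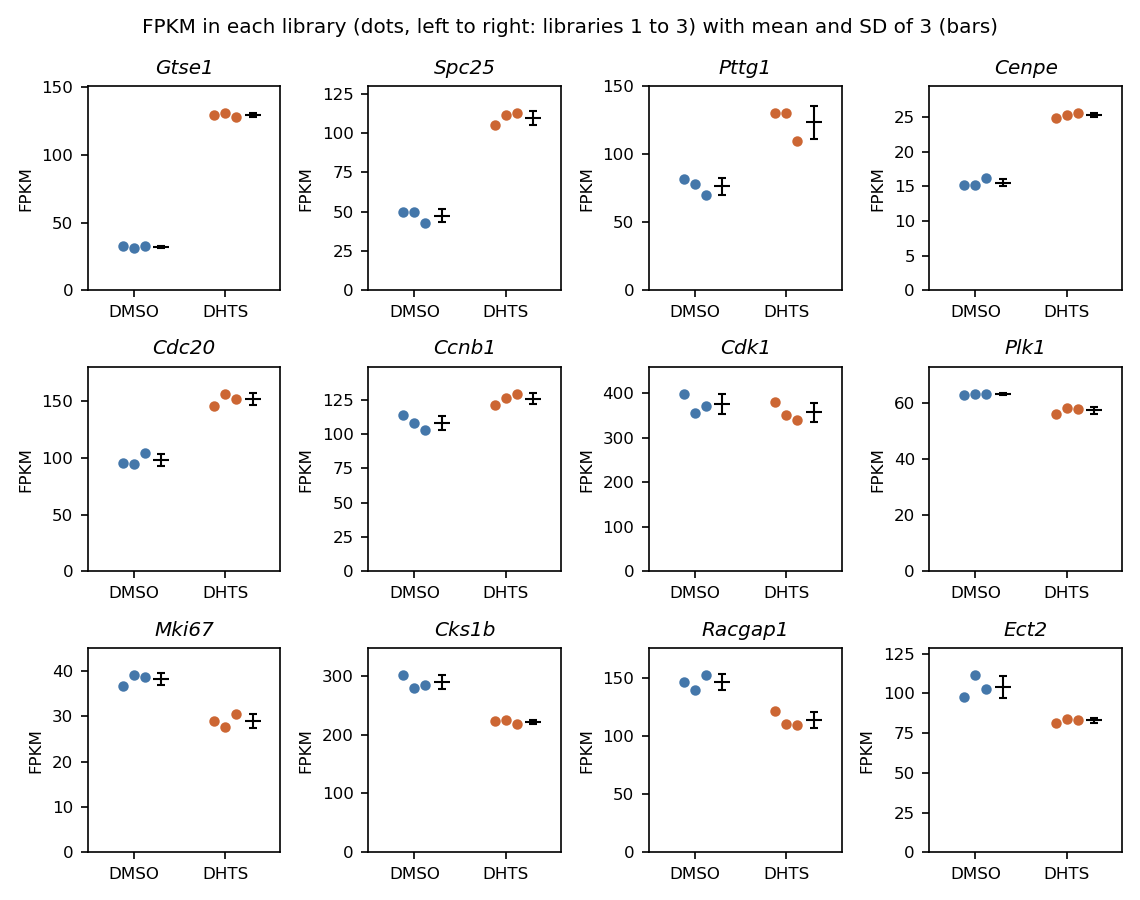
FPKM (vertical axis, from 0) of 12 mitosis and G2/M genes in each DMSO and DHTS library (dots), with mean and SD of 3 libraries (bars). The groups are apart in Gtse1, Spc25, Pttg1, Cenpe, Cdc20, Ccnb1, Plk1, Mki67, Cks1b, Racgap1 and Ect2, and overlap in Cdk1.

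The chromosomal passenger complex, which corrects faulty attachments of chromosomes to the spindle, had 3 of 4 genes higher and 0 lower. Among all tested genes 28.2% were higher and 21.9% lower, and 4 genes are too few to set a share against these. Its scaffold gene Incenp stood at 63.0, 64.5 and 64.6 FPKM after DMSO and 78.8, 79.8 and 80.2 FPKM after DHTS. The SD within each group was under 1 FPKM, and Incenp rose (0.31, SE 0.03, adjusted p = 0.00029). The kinase gene Aurkb stood at 88.7, 99.9 and 92.8 FPKM after DMSO and 117, 112 and 114 FPKM after DHTS. The groups are apart (0.29, SE 0.05, adjusted p = 0.0025). Birc5, which encodes survivin, stood at 131, 136 and 141 FPKM after DMSO and 156, 155 and 154 FPKM after DHTS. The DHTS libraries lay together above the DMSO libraries (0.18, SE 0.03, adjusted p = 0.0040). Cdca8, which encodes borealin, was 57.4 ± 1.94 and 63.4 ± 3.14 FPKM and missed the threshold (0.14, adjusted p = 0.0528), which it met when genes under a mean of 5 FPKM were left out (0.0496) and on the scaled fragments (0.0224).

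Of the 5 spindle checkpoint genes, whose products hold back anaphase until chromosomes are attached, 3 were higher and 0 lower. Bub1, a kinase gene of the checkpoint, stood at 23.6, 23.6 and 23.6 FPKM after DMSO and 28.8, 29.6 and 28.9 FPKM after DHTS (0.29, SE 0.04, adjusted p = 0.0014). The 3 DMSO libraries were almost identical for this gene. Ttk, the gene of the Mps1 kinase, went from 12.1 ± 0.652 to 14.2 ± 0.471 FPKM (0.22, adjusted p = 0.0277), and Bub1b, which encodes BubR1, from 49.0 ± 1.80 to 53.7 ± 1.37 FPKM (0.13, adjusted p = 0.0477). The Ttk call was lost without DMSO replicate 1 (0.0830) or 2 (0.0631) and without DHTS replicate 1 (0.0839) or 2 (0.0665), and also under median-ratio scaling (0.0577) and quantile normalization (0.252). The Bub1b call was lost in the same 2 scalings (0.168 and 0.122), without a filter (0.0574), without the trend and robust options (0.0773), and without each library except DMSO replicate 2 (0.0521 to 0.133). Mad2l1, the most highly expressed of the 5, stood at 96.8, 93.8 and 91.0 FPKM after DMSO and 102, 99.6 and 98.9 FPKM after DHTS. The groups did not overlap and the difference did not pass (0.10, interval 0.01 to 0.18, adjusted p = 0.0688), nor did that of Bub3 (0.10, adjusted p = 0.0776). Mad2l1 passed on the scaled fragments (0.12, adjusted p = 0.0204).

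Genes that act at the onset of anaphase included 3 of 4 that rose. Cdc20, the activator of the anaphase-promoting complex, stood at 94.97, 94.8 and 104 FPKM after DMSO and 146, 156 and 152 FPKM after DHTS. The ratio of means was 1.55 (log2 fold change 0.62, SE 0.05, adjusted p = 6.0e-05). Pttg1, which encodes securin, the inhibitor of separase, stood at 81.9, 78.1 and 69.9 FPKM after DMSO and 131, 130.5 and 109.9 FPKM after DHTS. Replicate 3 was the lowest library of each group, the groups did not overlap, and Pttg1 rose (0.68, SE 0.09, adjusted p = 0.00059). Ube2c, the ubiquitin-conjugating enzyme of the complex, stood at 321, 315 and 310.0 FPKM after DMSO and 370.3, 386 and 375 FPKM after DHTS (0.26, SE 0.03, adjusted p = 0.00037). In the annotation 22.8% of the exon bases of Ube2c overlap Tnnc2 on the other strand, which fell by 0.46 (adjusted p = 0.0475), and without stranded counts reads of the 2 genes cannot be told apart. Espl1, the gene of separase itself, was 26.6 ± 0.453 and 27.3 ± 0.841 FPKM (interval −0.08 to 0.15, adjusted p = 0.558).

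Kinetochore and centromere genes diverged, with 3 of 7 higher and 1 lower. Spc25, which encodes a subunit of the NDC80 complex that grips microtubules, lies on chromosome 2 at 69193895 to 69206194 (mm10, GENCODE M21). It stood at 49.7, 49.96 and 42.6 FPKM after DMSO and 105, 111 and 113 FPKM after DHTS. Every DHTS library was more than 2 times every DMSO library, and Spc25 rose (1.20, SE 0.07, adjusted p = 1.4e-05). Cenpe, the kinesin motor of kinetochores, stood at 15.2, 15.2 and 16.2 FPKM after DMSO and 24.9, 25.3 and 25.6 FPKM after DHTS (0.67, SE 0.05, adjusted p = 5.5e-05). Ndc80, the namesake of the complex, stood at 29.9, 27.5 and 30.5 FPKM after DMSO and 37.8, 37.96 and 38.5 FPKM after DHTS (0.37, SE 0.05, adjusted p = 0.0011). Neither gene had overlapping groups.

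The other subunits of the NDC80 complex did not follow. Nuf2 went from 47.0 ± 1.94 to 41.8 ± 1.38 FPKM and fell by 0.17 (adjusted p = 0.0274). Nuf2 missed the threshold without DMSO replicate 2 (0.0848) or 3 (0.0629) and without DHTS replicate 2 (0.0657) or 3 (0.0787). Spc24 was the least expressed subunit, with 50.9 to 77 estimated fragments per library, and its interval of −0.49 to 0.27 is the widest of the 53 genes. Cenpa, the histone variant that marks centromeres, stood at 135, 122 and 123 FPKM after DMSO and 128, 133 and 125 FPKM after DHTS, with overlap (0.03, interval −0.09 to 0.14, adjusted p = 0.692). Cenpf, a large protein of the outer kinetochore, had an adjusted p of 0.128 (0.13), and passed on the scaled fragments (0.0052).

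Gtse1 changed most of the 53 genes and more than 98.2% of all tested genes in absolute value. It encodes a microtubule-binding protein of G2 and mitosis, was described in mouse as B99, a gene induced by p53, and lies on chromosome 15 at 85859745 to 85876573. Gtse1 stood at 32.6, 31.4 and 32.6 FPKM after DMSO and 129, 131 and 128 FPKM after DHTS. The ratio of means was 4.02 (log2 fold change 1.97, SE 0.04, adjusted p = 8.1e-08), on 809 to 3825 estimated fragments per library. Its exons overlap no other gene in the annotation, and its fragment estimates are whole numbers.

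Among the other spindle motors and microtubule binders 2 of 8 were higher and 0 lower. Hmmr, a spindle protein first known as a receptor of hyaluronan, stood at 20.1, 20.2 and 19.9 FPKM after DMSO and 30.0, 25.6 and 27.0 FPKM after DHTS (0.43, SE 0.07, adjusted p = 0.0016), and has fractional fragment estimates. The kinesin gene Kif20b stood at 18.1, 20.3 and 18.8 FPKM after DMSO and 23.3, 25.3 and 25.6 FPKM after DHTS (0.36, SE 0.07, adjusted p = 0.0034). Neither gene had overlapping groups. The motor genes Kif11 (−0.13, adjusted p = 0.0503), Kif2c (0.01), Kif4 (−0.01) and Kif18a (0.10) and the Aurora A activator gene Tpx2 (0.09, adjusted p = 0.0853) did not pass. Kif4 shares 15.1% of its exon bases with Pdzd11 on the other strand, a gene that rose by 0.21 (adjusted p = 0.0106). Kif11 passed under both scalings (0.0168 under median ratio and 0.0088 under quantile), at a pseudocount of 0.1 (0.0494), at a mean of at least 5 FPKM (0.0484) and on the scaled fragments (0.0037). Nusap1, a microtubule bundler, was at 0.20 (adjusted p = 0.0525) and passed without DHTS replicate 3 (0.0302), at a mean of at least 5 FPKM (0.0493) and on the scaled fragments (0.0069).

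Genes of the central spindle and cytokinesis were lower in 3 of 6 cases and higher in 0. Racgap1, a subunit of centralspindlin that organises the division plane, stood at 147, 139 and 153 FPKM after DMSO and 122, 110.1 and 110.0 FPKM after DHTS. The groups did not overlap and Racgap1 fell by 0.36 (SE 0.06, adjusted p = 0.0016). Ect2, the exchange factor that Racgap1 recruits to activate RhoA, stood at 97.5, 112 and 103 FPKM after DMSO and 81.5, 84.0 and 83.4 FPKM after DHTS, and fell by 0.32 (SE 0.05, adjusted p = 0.0023). Prc1, which bundles the microtubules of the central spindle, went from 81.3 ± 4.52 to 67.2 ± 4.05 FPKM (−0.27, adjusted p = 0.0082), and 11.1% of its exon bases overlap Rccd1 on the other strand. Anln, which encodes the ring protein anillin, did not pass (−0.12, adjusted p = 0.0649), but did under median-ratio scaling (0.0218), without DMSO replicate 1 (0.0466) and on the scaled fragments (0.0036). The motor genes Kif23 (0.15, adjusted p = 0.0599) and Kif20a (0.13, adjusted p = 0.0546), the former encoding the partner of Racgap1 in centralspindlin, had positive values and passed on the scaled fragments (0.0066 and 0.0070). Kif20a shares 29.3% of its exon bases with Cdc23 on the other strand.

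Of 6 genes of chromosome structure 3 were lower and 1 higher. Mki67, the proliferation marker whose protein coats mitotic chromosomes, stood at 36.8, 39.2 and 38.6 FPKM after DMSO and 29.0, 27.6 and 30.5 FPKM after DHTS. The groups did not overlap and Mki67 fell by 0.38 (SE 0.05, adjusted p = 0.0011), to 0.760 times its DMSO mean. Top2a, the topoisomerase that untangles sister chromatids, stood at 270.3, 285 and 279.5 FPKM after DMSO and 238, 255 and 232 FPKM after DHTS (−0.20, SE 0.04, adjusted p = 0.0069). Smc4, an ATPase subunit of condensin, went from 90.4 ± 2.49 to 81.2 ± 1.14 FPKM (−0.15, adjusted p = 0.0111), while its partner Smc2 (0.09, interval −0.09 to 0.28) and the condensin I subunit gene Ncapd2 (0.01, interval −0.11 to 0.13) did not pass. Cdca2, which encodes Repo-Man, a protein that brings a phosphatase to chromatin, stood at 24.2, 24.2 and 24.1 FPKM after DMSO and 29.6, 31.2 and 31.0 FPKM after DHTS. All DHTS libraries lay above, and Cdca2 rose (0.33, SE 0.05, adjusted p = 0.00098).

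By level, the most abundant transcripts per length over the 6 libraries were Cdk1, Ube2c, Top2a, Cks1b and Cks2, and the least abundant were Kif18a, Spc24, Cdc25c and Mastl. Cdk1 lay above Ube2c in each DMSO library, but with DHTS the ranges of the 2 genes overlapped and the Ube2c mean of 377 ± 8.16 FPKM exceeded the Cdk1 mean of 357 ± 21.6 FPKM. Cks1b and Top2a overlapped with DMSO, and with DHTS Top2a (242 ± 12.1 FPKM) lay above Cks1b (222 ± 3.46 FPKM). Gtse1 moved from the level of Kif2c (34.1 ± 1.26 FPKM with DMSO) to that of Cenpa (129 ± 3.99 FPKM with DHTS). Estimated fragments per library ran from 50.9 for Spc24 to 12570 for Top2a.

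Because genes whose products work together changed unequally, ratios of FPKM were taken within each library for 15 pairs, chosen after the values were seen. The Spc25 to Nuf2 ratio was 1.10, 1.02 and 0.912 with DMSO and 2.42, 2.67 and 2.79 with DHTS. The Ndc80 to Nuf2 ratio went from 0.624 ± 0.0561 to 0.912 ± 0.0388. The Kif23 to Racgap1 ratio went from 0.268 ± 0.00868 to 0.384 ± 0.00160. The ratio moved in favour of Spc25 and Ndc80 within the NDC80 complex, and of Kif23 within centralspindlin. The Ccnb1 to Ccnb2 ratio went from 1.48 ± 0.0193 to 1.77 ± 0.125, that of Aurkb to Aurka from 1.24 ± 0.105 to 1.48 ± 0.106, and that of Pttg1 to Espl1 from 2.88 ± 0.195 to 4.54 ± 0.564. The Cks1b to Cks2 ratio went from 1.83 ± 0.126 to 1.61 ± 0.0841 and the Smc4 to Smc2 ratio from 1.76 ± 0.0977 to 1.48 ± 0.105. In 14 of the 15 pairs the groups did not overlap, which gives the smallest two-sided exact permutation p of 3 against 3, 0.10 (0.107 adjusted over the pairs), so no pair could pass. The remaining pair was Kif20a and Kif23, whose ratio was 1.25 ± 0.0535 and 1.24 ± 0.0806. Because the pairs were chosen on these same values, the count of 14 does not tell how often ratios of partner genes shift. No share was computed for pairs chosen without the values.

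**Figure D5:**
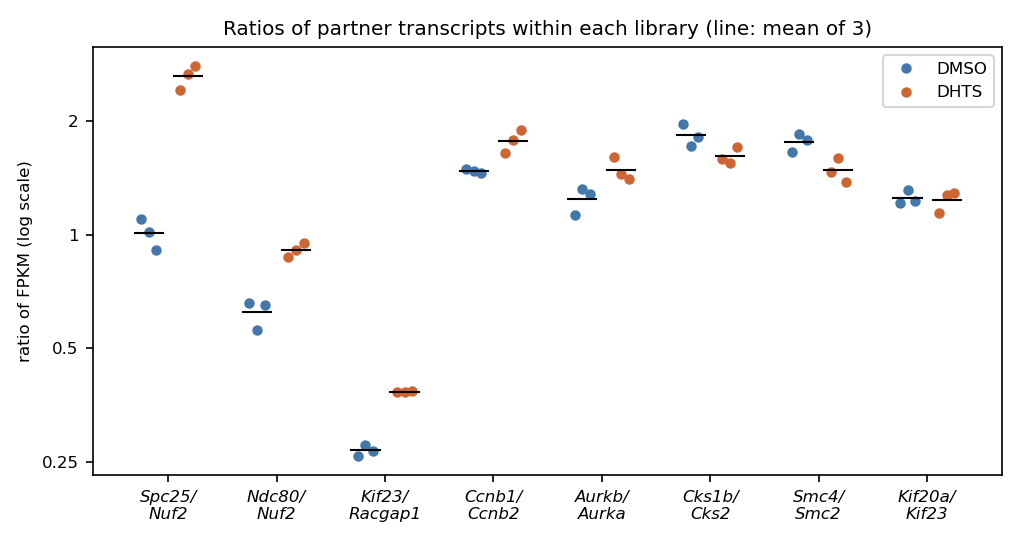
Ratio of FPKM of 8 pairs of partner genes (horizontal axis) within each DMSO and DHTS library (dots, log scale), with a line at the mean of 3 libraries. The Spc25 to Nuf2 ratio is apart most, at 1.01 with DMSO and 2.63 with DHTS on average, and the Kif20a to Kif23 ratio overlaps.

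Further genes of the mitotic machinery were counted in 6 lists, of which 125 entries were matched and 124 tested. In all 38 were higher and 28 lower, at a median log2 fold change of 0.02, against the background of 28.2% and 21.9% given above. Among other spindle and cytokinesis genes 10 of 32 were higher and 9 lower (5 without DMSO replicate 2). Psrc1, which encodes a spindle protein known in mouse as DDA3 and induced by p53, stood at 19.3, 16.7 and 20.5 FPKM after DMSO and 153, 158 and 149 FPKM after DHTS (2.97, SE 0.07, adjusted p = 3.1e-07). Ckap2, a spindle-associated protein gene, went from 31.8 ± 0.791 to 109 ± 2.81 FPKM (1.74, SE 0.04), and the kinesin gene Kif18b from 27.7 ± 0.418 to 75.03 ± 1.81 FPKM (1.40, SE 0.04). These 3 genes rose more than any of the 53 other than Gtse1.

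Other kinetochore and centromere genes were higher in 11 of 32 cases and lower in 3, with Cenpt at 0.96 and Zwilch at 0.62, both parts of the kinetochore, and the microtubule coupler Ska1 at −0.50. Without DHTS replicate 1 the count of higher genes was 7, and without DMSO replicate 1 or DHTS replicate 3 that of lower genes was 1. The anaphase-promoting complex and its regulators had 4 of 18 higher and 6 lower (3 without DMSO replicate 2, DHTS replicate 2 or DHTS replicate 3). Its subunit gene Anapc2 rose by 0.45 and Mad2l1bp, a silencer of the checkpoint, by 0.41, while the subunit gene Anapc5 fell by 0.38. Other condensin and cohesin genes had 4 of 16 higher and 5 lower. Among them were the cohesin acetyltransferase gene Esco2 (0.59), the cohesin loader gene Nipbl (0.40) and the cohesin regulator gene Pds5a (−0.44).

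Regulators of entry and of the G2 checkpoint had 5 of 15 higher and 3 lower. Cdkn1a, which encodes the kinase inhibitor p21, ranged from 58.5 to 65.9 FPKM with DMSO and from 485 to 487 FPKM with DHTS (2.95, SE 0.05, adjusted p = 3.5e-08). The cyclin F gene Ccnf rose by 0.86 and the checkpoint kinase gene Chek1 fell by 0.48 (adjusted p = 0.0379). Ccnb1ip1 was not tested, at 0.0748, 0.0776 and 0 FPKM with DMSO and listed at 0 with DHTS. Genes of the DREAM and MuvB complexes had 4 of 11 higher and 2 lower, and 2 higher without DMSO replicate 2 or 3 or DHTS replicate 2 or 3. Rbl2, which encodes the pocket protein p130 of DREAM, rose from 14.1 ± 0.701 to 23.9 ± 1.94 FPKM (0.72, SE 0.08, adjusted p = 0.00025), and 9.17% of its exon bases overlap Aktip on the other strand. Lin37, a MuvB subunit gene, was called at 0.71 (adjusted p = 0.0319) with DHTS libraries between 12.7 and 20.9 FPKM, and E2f5, an E2F of the repressive class, fell by 0.35 (adjusted p = 0.0062). Mybl2, the gene of B-MYB, fell from 35.1 ± 0.791 to 28.6 ± 0.910 FPKM (−0.29, adjusted p = 0.0022).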

How the data were processed

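RNA was sequenced from 6 libraries of cells labelled EOMA, 3 with DMSO and 3 with DHTS. Per the labels' protocols, total RNA was taken with TRIzol and NEBNext Ultra was the library kit. The submitters' processing notes name Cuffdiff 2.2.1, Cufflinks, HISAT2 2.0.4, fastp 0.20.0 and build mm10. The role of each tool, the annotation and the strand setting are not stated there. The authors deposited FPKM, which adjusts for gene length and for depth. Beside it stands a deposited signal headed as counts: estimated fragments divided by 1 factor per library. With that factor estimated, 92.7% to 93.0% of nonzero values were whole to within 0.1, so no count model was fitted, and the number of fragments per library follows from it. Depth limits the precision of low genes.

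Genes with a mean of at least 1 FPKM were fitted on log2(FPKM + 1) with limma 3.58.1 in R 4.3.3 (trend and robust options, treatment as the only term, two-sided, Benjamini-Hochberg adjustment over 11416 genes, threshold 0.05). Adjusted p-values in the text are from this fit or, where named, from an alternative of it. The genes, lists and tests were chosen with earlier results of these data known. Named in full were the 15 called genes with the largest change, 9 central genes and the most abundant gene of each role, and up to 3 called genes of each further list. Mybl2 was added because B-MYB is named above. Of the list entries, Cenpu, Sgol2a and Wapl were not matched. Gene coordinates and exon overlaps are from GENCODE M21, counted from 1. No 2 libraries held identical values, and replicates differed beyond counting noise (chi-square divided by its degrees of freedom, 2.04 to 2.82). Alternatives were a pseudocount of 0.1, other filters, scalings, options, a replicate block, the scaled fragments, leaving out genes at 0 in a whole group, and leaving out each library. On fragments simulated for this comparison, 11143 genes were tested and 194 of them were changed. Recovered were 69.8% of 63 genes changed 1.5-fold, 98.5% of 65 changed 2-fold and 100% of 66 changed 4-fold. Beside these 44, 64 and 66 recovered genes, 20 unchanged genes were called, a share of calls above the threshold of 0.05. In the data 5720 of 11416 genes were called, far more than were changed in the simulation. Most called mitosis and G2/M genes changed less than 1.5-fold. Such changes were not simulated, so these rates do not apply to them.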

Additional observations from a re-analysis of the deposited data

How the results depend on the processing

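None of the 28 called mitosis and G2/M genes changed direction under any of the 15 alternatives, and 22 kept their call under all of them. Mastl, Cks2, Plk1, Bub1b, Ttk and Nuf2 lost it under at least 1. The number of higher genes was 15 to 24 over the alternatives that keep 6 libraries, and 15 to 17 without 1 library. The number of lower genes was 9 to 14, and 7 to 11 without 1 library. The most calls, 24 and 14, came on the scaled fragments, where calls over all genes were also more (4050 of 11930 higher and 3411 lower, against 3218 and 2502 of 11416). Of all calls 56.3% were higher, but quantile normalization gave 42.8% and median-ratio scaling 49.5%. The set's median log2 fold change was 0.0524 under median-ratio scaling. Samples of the 2 groups share only a replicate number: deviations of same-numbered libraries correlated at −0.05, 0.06 and 0.01 across genes. With that number as a replicate block 16 genes were higher and 9 lower, the Bub1b, Ttk and Nuf2 calls being lost (adjusted p = 0.0751, 0.0678 and 0.0563). In the further lists the block gave 1 kinetochore gene lower and 2 DREAM genes higher. Quantile normalization gave 7 kinetochore genes higher and 5 lower, 8 condensin and cohesin genes lower, 6 entry regulators lower and 2 DREAM genes higher. Median-ratio scaling gave 5 entry regulators lower, the scaled fragments 9 condensin and cohesin genes lower, and no filter 2 DREAM genes higher. Without 1 library kinetochore genes numbered 7 to 9 higher and 1 to 3 lower, lower anaphase-promoting complex genes 3 to 6, lower spindle and cytokinesis genes 5 to 8 and higher DREAM genes 2 to 4. The cause of these shifts was not tested.

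Of the 25 genes that did not pass, 9 changed sign under at least 1 alternative. Under median-ratio scaling Aurka (−0.00846), Espl1 (−0.00531), Cenpa (−0.0173), Kif2c (−0.0274) and Ncapd2 (−0.0350) were negative. Under quantile normalization Cdk1 was at 0.0416, Espl1 at −0.0469, Kif2c at −0.0563, Kif18a at −0.0645 and Ncapd2 at −0.0559. On the scaled fragments Kif2c was at −0.0351 and Kif4 at 0.0259. Without 1 library the range was −0.00333 to 0.0765 for Aurka, −0.207 to 0.0392 for Spc24, −0.0155 to 0.0618 for Kif2c, −0.0336 to 0.0179 for Kif4 and −0.0165 to 0.0403 for Ncapd2. The largest standard errors were those of Spc24 (0.16, on 50.9 to 77 estimated fragments per library) and Mastl (0.13, on 395 to 670).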
